A study of Homo sapiens with 21 samples.

Results

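The 6 genes described here encode tyrosine kinases that nilotinib inhibits: ABL1 and ABL2, DDR1 and DDR2, and PDGFRA and PDGFRB. They were picked by gene symbol, and each had a row in the deposited count table of 28395 genes. Of these 6, 5 passed a filter on low counts and were tested among 16036 genes, and DDR1 did not pass. The libraries came from Hs578T, an established human triple-negative breast cancer cell line of wild-type genotype, so each group is a culture of that same line and no other cell model was measured. Cells were treated for 8 h and RNA was sequenced in 21 unstranded poly(A) libraries of 7 groups, with 3 replicates per group. The groups were the DMSO vehicle, 0.1 μM THZ531, 1 μM THZ531, 3.16 μM lapatinib, 1 μM nilotinib, 0.1 μM THZ531 with 3.16 μM lapatinib, and 0.1 μM THZ531 with 1 μM nilotinib. THZ531 is an inhibitor of CDK12 and CDK13, which act on the C-terminal domain of elongating RNA polymerase II, and lapatinib inhibits EGFR and HER2. The comparisons asked how mRNA of nilotinib's own targets responded to nilotinib, to another kinase inhibitor, to CDK12/13 inhibition and to the combinations.

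ABL1 and ABL2 are cytoplasmic tyrosine kinases that act on the actin cytoskeleton and downstream of growth factor receptors, and nilotinib was developed against the BCR-ABL1 fusion of chronic myeloid leukaemia. DDR1 and DDR2 are receptors for collagen, with DDR1 typical of epithelial cells and DDR2 of mesenchymal cells, where it binds fibrillar collagens. PDGFRA and PDGFRB are receptors for dimers of platelet-derived growth factor (PDGF) chains, and both are typical of fibroblasts and other mesenchymal cells. Counts measure mRNA, so none of the values below is a measure of kinase activity or of drug binding.

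Libraries held between 97612207 and 112229052 counts, and the correlation of log2 CPM (counts scaled to TMM-adjusted library size) between replicates of a group lay between 0.990 and 0.994. Markers of mesenchymal cells were high in every library, with VIM between 6390 and 10100 CPM, and of 6 epithelial markers EPCAM, CDH1, KRT19 and CLDN4 did not exceed 0.828 CPM, while KRT18 lay between 83.5 and 161 CPM and KRT8 between 19.7 and 35.0 CPM. All 13 mitochondrially encoded mRNAs were called higher in 1 μM THZ531 and in both combinations, with median log2 fold changes between 0.58 and 0.68, and 8 of them with library size alone. ESR1 lay between 0.0972 and 0.502 CPM and ERBB2, which encodes HER2, between 24.0 and 42.0 CPM. The T cell marker CD3E had at most 2 counts in a library, while CD68 reached 178 CPM. The first nilotinib library stood apart from the other two of its group for DDR2 and PDGFRA, and the values that rest on it are given with and without it.

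Gene positions are from the RefSeq annotation of GRCh38.p14. ABL1 (Entrez gene 25) lies on the plus strand at chr9:130713043-130887675 and ABL2 (Entrez gene 27) on the minus strand at chr1:179099330-179229677. DDR1 (Entrez gene 780) is at chr6:30880970-30900156 and DDR2 (Entrez gene 4921) at chr1:162630863-162787405, both on the plus strand. PDGFRA (Entrez gene 5156) is on the plus strand at chr4:54229293-54298245, and PDGFRB (Entrez gene 5159) is on the minus strand at chr5:150113839-150155845. The genes spanned 174.6 kb for ABL1, 156.5 kb for DDR2, 130.3 kb for ABL2, 69.0 kb for PDGFRA, 42.0 kb for PDGFRB and 19.2 kb for DDR1. Of the 50-base windows in the GENCODE v44 transcripts of PDGFRA, 15.4% also occurred in another gene, nearly all of them in ENSG00000282278, which shares 1533 exonic bases with PDGFRA on the same strand. For the other members this share was at most 1.27%, so reads between ABL1 and ABL2, or between PDGFRA and PDGFRB, were rarely ambiguous at that length.

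The promoters of PDGFRA, PDGFRB and DDR2 are shown because these receptors responded in different directions: PDGFRA fell where the others rose on the main scaling. Each run covers 250 bases before and 50 bases after the RefSeq start site on GRCh38.p14, 5′ to 3′ on the gene's strand, and capitals mark matches on either strand to a GC box, a CCAAT box or a TATA box. The letters searched for the GC box were GGGCGG. Those for the box named CCAAT were its name, and those for the TATA box were TATAAA. PDGFRA is chr4:54229043-54229342 on the plus strand, PDGFRB is chr5:150155796-150156095 on the minus strand, and DDR2 is chr1:162630613-162630912 on the plus strand.
PDGFRA: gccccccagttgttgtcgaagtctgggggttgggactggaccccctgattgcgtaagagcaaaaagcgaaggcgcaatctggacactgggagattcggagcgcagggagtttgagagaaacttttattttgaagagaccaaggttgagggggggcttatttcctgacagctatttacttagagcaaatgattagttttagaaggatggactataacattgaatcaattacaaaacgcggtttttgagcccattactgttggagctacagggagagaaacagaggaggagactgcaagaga
PDGFRB: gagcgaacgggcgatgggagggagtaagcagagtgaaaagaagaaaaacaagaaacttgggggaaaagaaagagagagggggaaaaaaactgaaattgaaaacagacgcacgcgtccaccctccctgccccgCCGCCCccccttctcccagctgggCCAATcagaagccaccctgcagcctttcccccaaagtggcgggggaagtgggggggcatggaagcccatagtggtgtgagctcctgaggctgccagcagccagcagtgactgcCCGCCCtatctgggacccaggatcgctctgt
DDR2: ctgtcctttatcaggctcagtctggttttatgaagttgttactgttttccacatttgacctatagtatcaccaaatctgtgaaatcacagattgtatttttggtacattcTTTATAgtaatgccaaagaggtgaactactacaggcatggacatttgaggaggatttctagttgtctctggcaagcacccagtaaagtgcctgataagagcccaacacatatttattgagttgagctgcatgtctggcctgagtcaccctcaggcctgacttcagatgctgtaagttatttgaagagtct
The PDGFRA window held no match to these 3 motifs and 8 CpG dinucleotides, with a GC content of 47.0%. The PDGFRB window held 2 GC boxes and 1 CCAAT box, which did not overlap, with 11 CpG and a GC content of 59.3%. The DDR2 window held 1 TATA box, 0 CpG and a GC content of 41.0%. Among 10637 promoters of the same length whose genes had at least 10 counts in every library, 69.5% held a GC box, 36.5% a CCAAT box and 5.8% a TATA box, the median GC content was 65.3% and the median number of CpG was 26. The matches are descriptions of letters in these windows and were not tested against the expression data.

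DDR1 could not be read from this table. It had 2 counts in the second library of 0.1 μM THZ531 and 0 counts in every other library. A floor of 3 counts corresponded to between 0.0267 and 0.0307 CPM per library, for counting error only. Genes around DDR1 were also low: 91 of 138 protein-coding genes within 2 Mb of it (65.9%) had under 10 counts in every library, against 4773 of 19037 elsewhere (25.1%). Some of these neighbours, picked after their values were seen, are used by most cells. TUBB, a beta-tubulin gene, had 11 to 70 counts per library, FLOT1 had 0 to 4, MRPS18B, a mitochondrial ribosome protein gene, had 0 to 2, and GTF2H4, a subunit of general transcription factor TFIIH, had 0. Since neighbouring genes used by most cells were at or near 0 too, the DDR1 counts do not show whether the cells expressed DDR1. No fold change is given for it.

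In DMSO, PDGFRA, ABL1 and DDR2 were the highest members per length of exon, and ABL2 and PDGFRB were lower. Counts per kilobase of union exon, scaled to TMM-adjusted library size (RPKM), were 21.8 ± 0.554 for PDGFRA (SD, n = 3), 19.0 ± 1.75 for ABL1, 18 ± 0.641 for DDR2, 5.98 ± 0.566 for ABL2 and 2.36 ± 0.0149 for PDGFRB. ABL1 and DDR2 did not differ beyond their spread. With the length of the longest transcript in place of all exons they were at 19.8 and 19.7 RPKM, while PDGFRA was at 32.6 RPKM, so the distance of PDGFRA from them depended on the length used. PDGFRA ranked 6, ABL1 7, DDR2 8, ABL2 19 and PDGFRB 30 by RPKM among the 62 tyrosine kinase genes that were tested, whose median was 1.89 RPKM. The deepest counts were those of DDR2, with 21382 to 32257 per library, and the lowest those of PDGFRB, with 1492 to 2977, for which counting error at the lowest count is 2.59%. The SD of PDGFRB over the DMSO libraries, 0.107 around a mean of 16.8 CPM, was smaller than that counting error.

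Of the 2 ABL kinases, ABL2 fell at 1 μM THZ531 and in both combinations, and ABL1 fell at 1 μM THZ531. The treatment with 1 μM THZ531 and the 2 combinations are named strong here because most tested genes were called in each. Activity of CDK12/13 was not measured in these libraries. ABL2 was at 98.8, 109 and 90.6 CPM in the DMSO replicates and at 41.2, 23.5 and 38.3 CPM in 1 μM THZ531. It was at 46.2, 70.6 and 56.3 CPM with 0.1 μM THZ531 and lapatinib, and at 40.8, 56.6 and 55.0 CPM with 0.1 μM THZ531 and nilotinib. Every library of these 3 treatments lay below every DMSO library. The log2 fold change (FC) of ABL2 against DMSO was -1.54 ± 0.17 (SE) at 1 μM THZ531 (adjusted p = 9.82e-08), -0.79 ± 0.16 with lapatinib (adjusted p = 0.000254) and -0.97 ± 0.17 with nilotinib (adjusted p = 2.82e-05), by edgeR's quasi-likelihood test. In these comparisons 69.9%, 72.1% and 71.0% of the tested genes were called in either direction, and 36.8%, 37.8% and 37.3% were called lower, so a lower call by itself was common. In bulk RNA, fewer cells of a kind and less RNA per cell cannot be told apart.

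ABL1 was at 127, 147 and 125 CPM in DMSO and at 93.8, 61.3 and 92.2 CPM in 1 μM THZ531, with no overlap. Its log2 FC there was -0.69 ± 0.16 (adjusted p = 0.000956). In the combination with lapatinib ABL1 was at 102, 155 and 144 CPM and in the combination with nilotinib at 118, 158 and 168 CPM, so both ranges overlapped the DMSO range and were wide. The log2 FC values were 0.01 ± 0.16 (adjusted p = 0.955) and 0.15 ± 0.16 (adjusted p = 0.408) on the main scaling, but -0.67 (adjusted p = 0.000397) and -0.47 (adjusted p = 0.0112) when libraries were scaled to the 13 mitochondrially encoded mRNAs, which are transcribed by a separate polymerase. Under that scaling the median log2 FC of all tested genes moved to -0.69 with lapatinib, -0.63 with nilotinib and -0.55 at 1 μM THZ531, against -0.01 in each on the main scaling (trimmed mean of M-values, TMM). With library size alone these medians were -0.34, -0.31 and -0.27, and with upper-quartile scaling 0.15, 0.13 and 0.19.

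Counts of ABL1 and ABL2 within a library give a ratio that no scaling changes. It was 1.34 ± 0.0473 in DMSO (SD, n = 3), 2.43 ± 0.165 at 1 μM THZ531, 2.33 ± 0.205 with 0.1 μM THZ531 and lapatinib and 2.91 ± 0.131 with 0.1 μM THZ531 and nilotinib. The 3 treated ranges lay above the DMSO range of 1.28 to 1.38, and the ratio rose 1.82-fold, 1.74-fold and 2.18-fold. An exact two-sided permutation test gave p = 0.1 for each, which is the smallest that 3 against 3 libraries allow. Lapatinib alone gave 1.00, 1.19 and 1.23, below the DMSO range (exact permutation p = 0.1), and nilotinib alone gave 1.20, 1.39 and 1.42, which overlapped it.

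**Figure D1:**
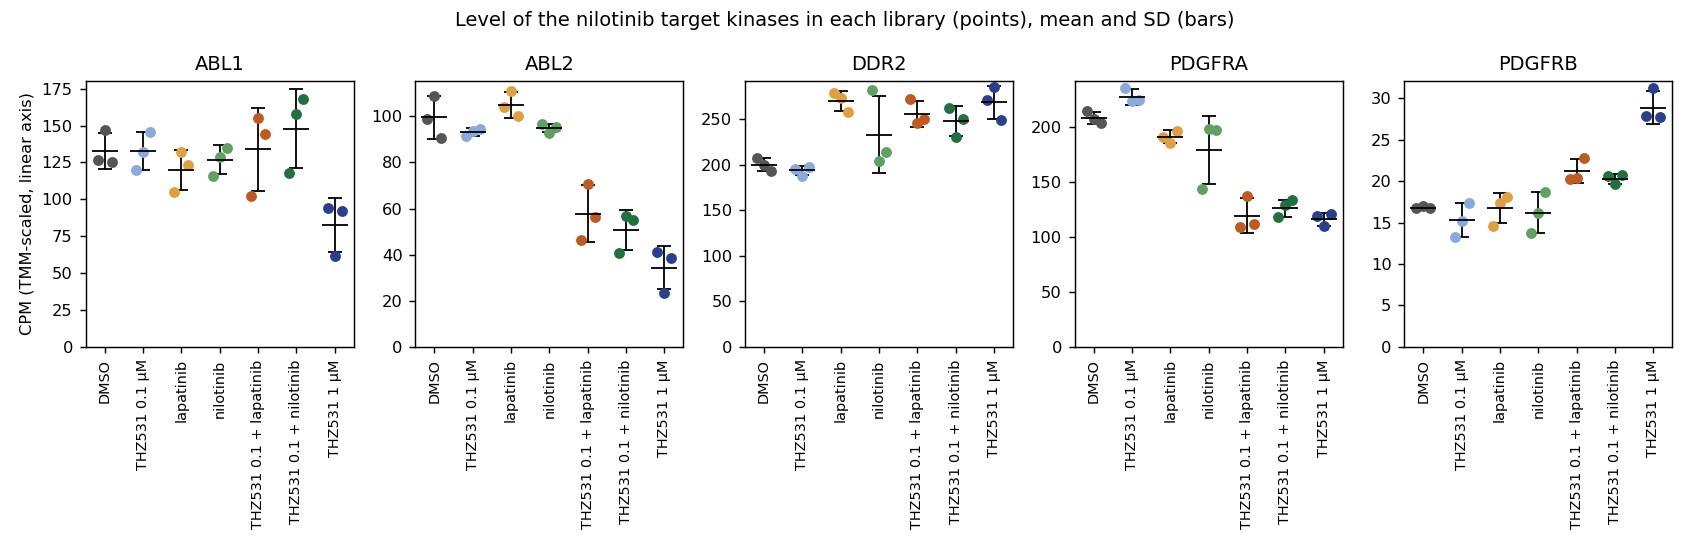
TMM-scaled CPM of ABL1, ABL2, DDR2, PDGFRA and PDGFRB on linear axes that start at 0, with 3 libraries (points, in the order of replicate number), mean and SD for each of the 7 groups. ABL2 and PDGFRA lie below DMSO and PDGFRB above it in the 3 strong THZ531 treatments on this scaling, and DDR2 is high in lapatinib. The higher values of DDR2 in those 3 treatments, and of PDGFRB in the combinations, turn lower when libraries are scaled to mitochondrial mRNAs.

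The 2 PDGF receptors moved apart. PDGFRA was at 214, 207 and 203 CPM in DMSO and at 119, 110 and 121 CPM in 1 μM THZ531. With 0.1 μM THZ531 it was at 109, 137 and 112 CPM when lapatinib was added and at 118, 129 and 133 CPM when nilotinib was added. All 9 libraries lay below the DMSO range, and the 3 treatment ranges overlapped each other. PDGFRA log2 FC against DMSO was -0.84 at 1 μM THZ531 (adjusted p = 3.78e-07), -0.80 with lapatinib (adjusted p = 5.46e-07) and -0.72 with nilotinib (adjusted p = 2.53e-06), each with an SE of 0.10. Neither combination differed from 1 μM THZ531 by the test, with log2 differences of 0.03 ± 0.10 (adjusted p = 0.851) and 0.12 ± 0.10 (adjusted p = 0.468).

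PDGFRB, the rarer receptor, was at 16.8, 17.0 and 16.7 CPM in DMSO and at 27.9, 31.2 and 27.7 CPM in 1 μM THZ531. It was at 20.3, 20.4 and 22.8 CPM with 0.1 μM THZ531 and lapatinib and at 20.6, 19.6 and 20.7 CPM with 0.1 μM THZ531 and nilotinib. All 9 libraries lay above the DMSO range, and the libraries of 1 μM THZ531 lay above those of both combinations. Its log2 FC was 0.78 ± 0.11 at 1 μM THZ531 (adjusted p = 2.28e-06), a level 1.72 times that of DMSO. With scaling to mitochondrial mRNAs the same difference was 0.24 ± 0.15 (adjusted p = 0.193). In the combinations PDGFRB log2 FC was 0.33 ± 0.11 with lapatinib (adjusted p = 0.00969) and 0.27 ± 0.11 with nilotinib (adjusted p = 0.0308), but -0.36 and -0.35 under mitochondrial scaling. Without the third library of the lapatinib combination its call was lost (log2 FC 0.27, adjusted p = 0.0509), and the call with nilotinib was lost when any DMSO library, or the first or the third library of that combination, was left out (log2 FC 0.26 to 0.30, adjusted p up to 0.0716). In these 3 comparisons 33.1%, 34.3% and 33.7% of tested genes were called higher.

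The ratio of PDGFRA to PDGFRB counts was 12.7, 12.2 and 12.1 in the DMSO libraries. It was 4.24, 3.53 and 4.37 at 1 μM THZ531, 5.36, 6.72 and 4.89 with 0.1 μM THZ531 and lapatinib, and 5.71, 6.57 and 6.41 with 0.1 μM THZ531 and nilotinib. All 9 were below the DMSO range whatever the scaling, at 0.326, 0.454 and 0.504 of the DMSO ratio on average (exact permutation p = 0.1 for each). In 0.1 μM THZ531 alone the ratio was 17.8, 14.6 and 12.9, above DMSO in every library (exact permutation p = 0.1).

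DDR2, the collagen receptor, was higher after lapatinib alone and after each strong THZ531 treatment on the main scaling. It was at 207, 200 and 193 CPM in DMSO, 279, 273 and 258 CPM in lapatinib and 271, 286 and 249 CPM in 1 μM THZ531. It was at 272, 246 and 250 CPM with 0.1 μM THZ531 and lapatinib and at 263, 231 and 250 CPM with 0.1 μM THZ531 and nilotinib. None of these ranges overlapped that of DMSO. The log2 FC was 0.43 ± 0.09 at 1 μM THZ531 (adjusted p = 0.000344), 0.36 ± 0.09 with lapatinib (adjusted p = 0.00164) and 0.31 ± 0.09 with nilotinib (adjusted p = 0.00477), but these turned to -0.12, -0.32 and -0.31 under mitochondrial scaling and fell to 0.17, 0.03 and 0.01 with library size alone. The direction of DDR2 in these 3 treatments therefore rested on the scaling, and so did the direction of PDGFRB in the combinations.

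**Figure D2:**
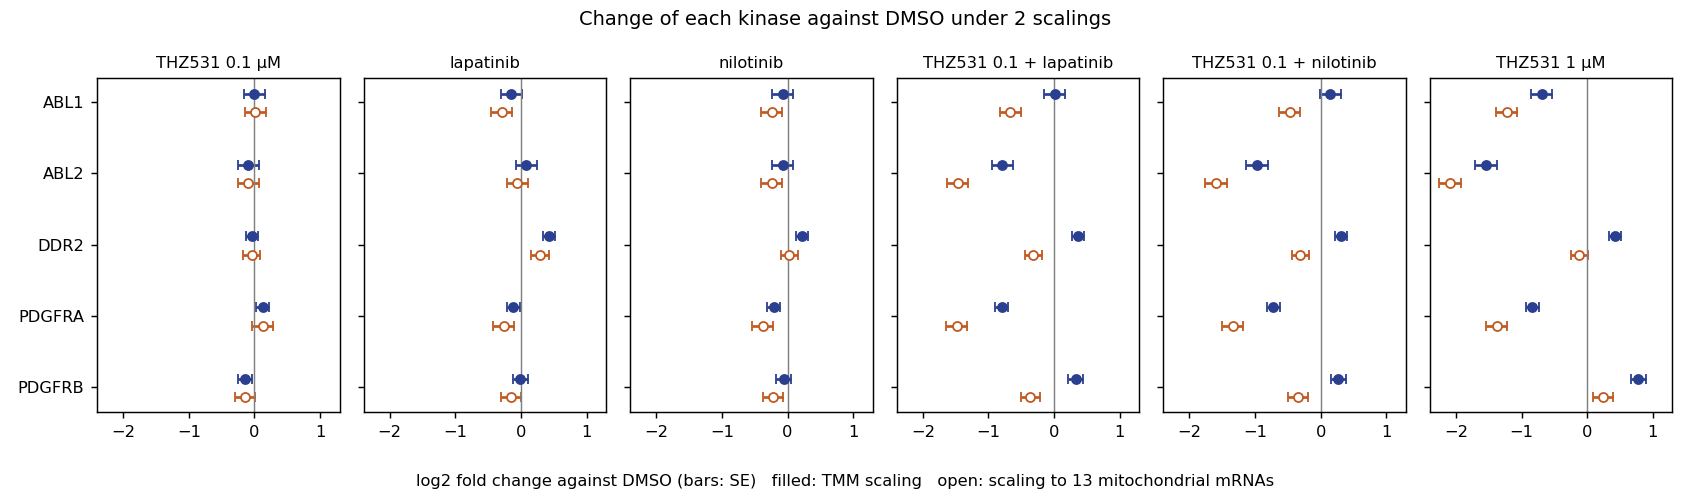
Log2 fold change against DMSO with its SE for ABL1, ABL2, DDR2, PDGFRA and PDGFRB in the 6 treatments, with TMM scaling (filled) and with scaling to the 13 mitochondrially encoded mRNAs (open). ABL2 and PDGFRA lie below 0 in the 3 strong THZ531 treatments under both scalings, while DDR2, and PDGFRB in the combinations, lie above 0 with TMM and below 0 with the mitochondrial mRNAs.

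Lapatinib alone changed DDR2 and no other member by the test. The log2 FC of DDR2 was 0.43 ± 0.09 (adjusted p = 0.0454, edgeR's quasi-likelihood test), in a comparison in which 0.312% of the tested genes were called, 0.256% higher and 0.0561% lower. The call was narrow: it was lost in 15 of the 21 fits that each left out 1 library, including every fit without a DMSO, a lapatinib or a 0.1 μM THZ531 library, with adjusted p up to 0.269, although the log2 FC stayed between 0.41 and 0.46. Under mitochondrial scaling it was 0.29 ± 0.13 (adjusted p = 0.695). That scaling moved the median log2 FC of all tested genes in lapatinib to -0.15, against -0.01 on the main scaling. The 13 mitochondrially encoded mRNAs had a median log2 FC of 0.15 in lapatinib on the main scaling, with 0 called. PDGFRA was at 191, 185 and 196 CPM in lapatinib, just below the DMSO range, with a log2 FC of -0.12 (adjusted p = 0.915). The DDR2 to PDGFRA ratio, which needs no scaling, was 1.46, 1.48 and 1.31 in lapatinib and 0.969, 0.966 and 0.949 in DMSO (exact permutation p = 0.1). ABL1, ABL2 and PDGFRB overlapped DMSO, with log2 FC of -0.15, 0.08 and -0.01.

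Nilotinib alone, which binds the proteins these genes encode, gave 0 calls among the 5 members by edgeR and 0 by DESeq2. Of all tested genes 0.343% were called at an adjusted p under 0.05, 0.0998% lower and 0.243% higher. At an unadjusted p under 0.05 there were 2 members, for which the share of all tested genes was not counted. Those 2 members were DDR2, at 282, 204 and 214 CPM (log2 FC 0.22 ± 0.09, adjusted p = 0.392), and PDGFRA, at 143, 198 and 197 CPM (log2 FC -0.21 ± 0.10, adjusted p = 0.499). In both, the first library was far from the other two, high for DDR2 and low for PDGFRA. Without it the log2 FC was 0.06 ± 0.07 for DDR2 and -0.08 ± 0.08 for PDGFRA. The nilotinib libraries were at 116, 129 and 135 CPM for ABL1, at 96.5, 93.0 and 95.2 CPM for ABL2 and at 13.7, 16.2 and 18.7 CPM for PDGFRB, each overlapping DMSO. Lapatinib and nilotinib did not differ for any member by the test, with 0 calls by edgeR and by DESeq2. Of all tested genes 0.904% were called at an adjusted p under 0.05, 0.355% lower and 0.549% higher in nilotinib. At an unadjusted p under 0.05 there was 1 member, again without a counted share of all tested genes. Without the first nilotinib library, DDR2 was lower in nilotinib than in lapatinib by a log2 difference of -0.37 (adjusted p = 0.0158), against -0.21 with it (adjusted p = 0.383).

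THZ531 at 0.1 μM alone gave 0 calls among the members by edgeR and by DESeq2, and 0 at an unadjusted p under 0.05, while 6.09% of the tested genes were called, 4.31% lower and 1.78% higher. PDGFRA was at 235, 223 and 224 CPM, above the DMSO range, with a log2 FC of 0.13 ± 0.10 (adjusted p = 0.524). ABL1 was at 120, 132 and 146 CPM, ABL2 at 91.6, 93.7 and 94.7 CPM, DDR2 at 195, 188 and 198 CPM and PDGFRB at 13.2, 15.2 and 17.3 CPM. The 4 ranges overlapped those of DMSO, and their log2 FC lay between -0.14 and -0.00.

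Raising THZ531 from 0.1 to 1 μM changed all 5 tested members, where 70.2% of all tested genes were called, 35.9% lower and 34.3% higher. The log2 differences were -1.44 for ABL2 (adjusted p = 2.41e-07), -0.96 for PDGFRA (adjusted p = 5.56e-08) and -0.69 for ABL1 (adjusted p = 0.00101). They were 0.92 for PDGFRB (adjusted p = 2.69e-07) and 0.47 for DDR2 (adjusted p = 0.000131), which turned to -0.08 for DDR2 under mitochondrial scaling. No member's range overlapped between the 2 doses. The share of all tested genes whose ranges did not overlap was not counted, here or in the other comparisons.

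Adding an inhibitor to 0.1 μM THZ531 lowered ABL2 and PDGFRA. With lapatinib the log2 difference from 0.1 μM THZ531 was -0.69 for ABL2 (adjusted p = 0.000885) and -0.93 for PDGFRA (adjusted p = 7.73e-08), and with nilotinib it was -0.88 (adjusted p = 9.43e-05) and -0.85 (adjusted p = 3.08e-07). In the comparison with lapatinib 71.1% of all tested genes were called, 36.1% lower and 35.0% higher, and in that with nilotinib 70.0%, 35.6% lower and 34.3% higher. DDR2 and PDGFRB were higher by 0.40 and 0.47 with lapatinib and by 0.36 and 0.41 with nilotinib, on the main scaling, but under mitochondrial scaling these differences were -0.28, -0.22, -0.26 and -0.21. Against the single inhibitors, ABL2 and PDGFRA were again lower in the combinations, by -0.87 and -0.68 for lapatinib and by -0.90 and -0.50 for nilotinib, where 72.3% (37.4% lower and 34.9% higher) and 70.3% (36.7% lower and 33.6% higher) of tested genes were called. PDGFRB was 0.34 higher than in lapatinib and 0.33 higher than in nilotinib, but -0.21 and -0.13 under mitochondrial scaling. The PDGFRB call was also lost without the first lapatinib library (log2 difference 0.26, adjusted p = 0.0554) or without the first nilotinib library (0.22, adjusted p = 0.0846). DDR2 did not differ between lapatinib with and without THZ531 by the test on the main scaling (-0.08, adjusted p = 0.46), but was lower with THZ531 under mitochondrial scaling (-0.62, adjusted p = 0.000112) and with library size alone (-0.41). Without the first nilotinib library, DDR2 was 0.25 higher in the nilotinib combination than in nilotinib alone (adjusted p = 0.00492), against 0.09 with it (adjusted p = 0.398), and PDGFRA differed by -0.64 without that library, against -0.50 with it.

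The change in the combinations was larger than the sum of the single changes for 3 members. The interaction term, which is the log2 change in the combination minus the log2 changes in both single treatments, was -0.81 ± 0.23 for ABL2 with nilotinib (adjusted p = 0.00588) and -0.77 ± 0.23 with lapatinib (adjusted p = 0.00729). For PDGFRA it was -0.63 ± 0.14 with nilotinib (adjusted p = 0.000791) and -0.81 ± 0.14 with lapatinib (adjusted p = 6.12e-05). PDGFRB gave 0.47 ± 0.15 with nilotinib (adjusted p = 0.0129) and 0.49 ± 0.15 with lapatinib (adjusted p = 0.00965), but under mitochondrial scaling these were 0.01 and -0.07. Such terms were called for 56.8% of the tested genes with nilotinib (31.2% negative and 25.6% positive) and 60.3% with lapatinib (32.0% negative and 28.2% positive). ABL1 and DDR2 gave terms of 0.23 and 0.13 with nilotinib and of 0.16 and -0.03 with lapatinib, none of them called, although mitochondrial scaling gave -0.57 for DDR2 with lapatinib (adjusted p = 0.0101). Without the first nilotinib library, the nilotinib term of DDR2 was 0.30 (adjusted p = 0.0115), that of PDGFRA was -0.76 and that of PDGFRB 0.38 (adjusted p = 0.0386). The 2 terms and the single comparisons share the DMSO and 0.1 μM THZ531 libraries.

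Both combinations held 0.1 μM THZ531 and were set beside the higher dose of THZ531 alone. ABL1 was higher in the combinations than at 1 μM THZ531, by 0.70 with lapatinib (adjusted p = 0.00285) and by 0.84 with nilotinib (adjusted p = 0.000713). ABL2 was higher by 0.75 (adjusted p = 0.00172) and by 0.57 (adjusted p = 0.0156), and PDGFRB was lower, at -0.45 (adjusted p = 0.00318) and -0.51 (adjusted p = 0.00136). The ABL2 ranges of the nilotinib combination and 1 μM THZ531 overlapped, at 40.8 to 56.6 and 23.5 to 41.2 CPM. That ABL2 call was lost without the second or the third library of the combination (log2 differences 0.48 and 0.51) and without the second library of 1 μM THZ531 (0.36, adjusted p = 0.0923, the highest of these), and also in a fit of those 2 groups alone (0.60, adjusted p = 0.117). DDR2 differed by -0.07 (adjusted p = 0.635) and -0.11 (adjusted p = 0.435), within its SE of 0.09 or close to it. In the comparison with the lapatinib combination 28.9% of tested genes were called, 12.8% higher and 16.1% lower, and in that with the nilotinib combination 24.2%, 11.2% higher and 13.0% lower. The combinations differed from each other in 0 members by edgeR and by DESeq2, with 0 at an unadjusted p under 0.05, and 1.47% of tested genes were called, 0.736% lower and 0.73% higher in the lapatinib combination.

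**Figure D3:**
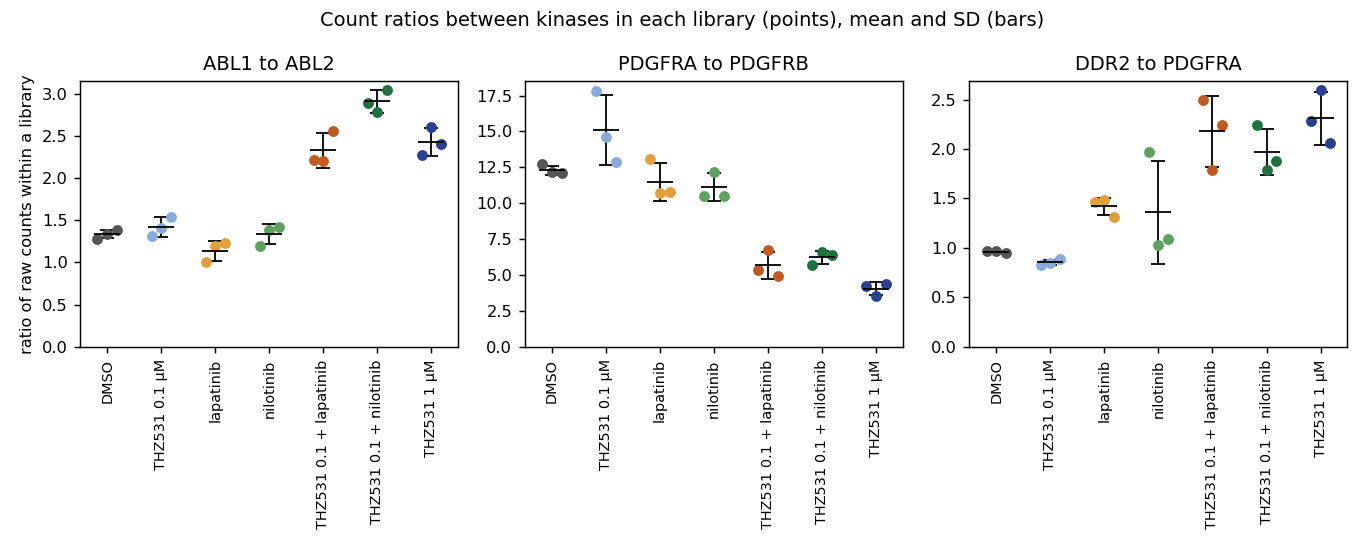
Ratios of raw counts within each library for ABL1 to ABL2, PDGFRA to PDGFRB and DDR2 to PDGFRA, with 3 libraries (points, in the order of replicate number), mean and SD for each of the 7 groups. In the 3 strong THZ531 treatments the ABL1 to ABL2 and DDR2 to PDGFRA ratios lie above DMSO and the PDGFRA to PDGFRB ratio below it, and no scaling of libraries changes these ratios.

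By level, the order of groups differed between members. ABL2 was at 105 CPM in lapatinib, 99.6 in DMSO, 94.9 in nilotinib and 93.3 in 0.1 μM THZ531, where neighbours in the order overlapped, and then fell below to 57.7, 50.8 and 34.3 CPM in the lapatinib combination, the nilotinib combination and 1 μM THZ531. PDGFRA had gaps between 0.1 μM THZ531 (227 CPM), DMSO (208 CPM) and lapatinib (191 CPM), and another between nilotinib (179 CPM) and the 3 strong treatments (126, 119 and 116 CPM). For PDGFRB, 1 μM THZ531 (28.9 CPM) stood above the lapatinib combination (21.2 CPM), which overlapped the nilotinib combination (20.3 CPM), and that stood above DMSO (16.8 CPM). For DDR2 each group overlapped its neighbours in the order from lapatinib (270 CPM) to 0.1 μM THZ531 (194 CPM). ABL1 had 1 gap, between lapatinib (120 CPM) and 1 μM THZ531 (82.4 CPM).

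Genes with the most similar pattern were found from the Pearson correlation of mean log2 CPM over the 7 groups, among 10913 genes whose average log2 CPM was 1 or more. For ABL1 these were URGCP (r = 0.997), UBE2O (0.990) and CCDC12 (0.983), and for ABL2 they were ZBTB6 (0.998), NOL7 (0.997) and ZNF280C (0.996). PDGFRA was most like EXOG (0.997), ZNF367 (0.996) and NEK2 (0.996), and PDGFRB most like RNF123 (0.995), AP3D1 (0.994) and BTN3A2 (0.990). DDR2 had the lowest such values, with SLC9B2 (0.972), FKBP9P1 (0.965) and ITGB3 (0.953), an integrin subunit. Among the members r was 0.898 between ABL2 and PDGFRA and -0.955 between ABL2 and PDGFRB. These are descriptions over 7 points that share libraries, and the 3 strong treatments set most of their range.

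Other targets of nilotinib were few here. KIT had at most 6 counts in a library and was not tested. Of the 3 tested, MAP3K20, a stress kinase, and NQO2, a quinone reductase, rose in the 3 strong treatments on the main scaling. MAP3K20 was at 270 CPM in DMSO. It was at 347 CPM in the lapatinib combination, 360 CPM in the nilotinib combination and 361 CPM at 1 μM THZ531. Over all tested genes 34.3%, 33.7% and 33.1% were called higher there. With library size alone 0, 0 and 1 of the 3 genes were called higher. NQO2 log2 FC was 0.52 with lapatinib, 0.55 with nilotinib and 0.46 at 1 μM THZ531, but -0.16, -0.06 and -0.07 under mitochondrial scaling. CSF1R, the receptor for macrophage colony-stimulating factor, was not called in these treatments, at 0.927 CPM in DMSO. The medians of the 3 genes were 0.36, 0.42 and 0.42, beside -0.01 for all tested genes. Under mitochondrial scaling the medians were -0.32, -0.21 and -0.13, with 1, 0 and 0 genes called lower and 0 called higher.

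Genes of the PDGF ligands were called in both directions on the main scaling. PDGFA was at 83.2 ± 12 CPM in DMSO (SD, n = 3). It fell to 36.6 ± 9.06 CPM with 0.1 μM THZ531 and lapatinib, 36.3 ± 10.0 CPM with nilotinib and 30.6 ± 8.62 CPM at 1 μM THZ531. Its log2 FC was -1.18, -1.20 and -1.44 (adjusted p = 5.22e-05, 4.85e-05 and 6.04e-06) and stayed negative under every scaling tried. PDGFD was at 2.22 ± 0.0984 CPM in DMSO. It rose to 4.72, 4.22 and 4.41 CPM, with log2 FC of 1.09, 0.93 and 0.99 (adjusted p = 2.21e-09, 2.55e-08 and 1.17e-08). Under mitochondrial scaling PDGFD was still higher, at 0.40, 0.31 and 0.44, although the middle value was not called (adjusted p = 0.0937). PDGFC rose by 0.46, 0.42 and 0.32 on the main scaling, and PDGFB was not tested. The median of the 3 tested ligands was 0.46, 0.42 and 0.32, but -0.22, -0.21 and -0.23 under mitochondrial scaling.

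Collagens are the ligands of the DDR receptors, and no chain was called lower in the strong treatments on the main scaling. Of 12 tested, 5 were called higher in the lapatinib combination, 3 in the nilotinib combination and 7 at 1 μM THZ531, with medians of 0.48, 0.41 and 0.54. Over all tested genes 34.3%, 33.7% and 33.1% were called higher there, and 37.8%, 37.3% and 36.8% lower. With library size alone 1, 0 and 1 chains were called higher. COL5A2, a fibrillar chain, had log2 FC of 0.74, 0.63 and 0.78, and COL3A1 had 0.75, 0.48 and 0.65, none of which was called under mitochondrial scaling. Under mitochondrial scaling the medians were -0.20, -0.21 and 0.00, with 1, 2 and 0 chains called lower and 0 called higher. On the main scaling the summed level of the mesenchymal markers also rose. It went from between 12500 and 13800 CPM in DMSO to between 17400 and 19700 CPM in the 3 strong treatments. The summed epithelial markers, mostly KRT18 and KRT8, went from 105 to between 153 and 196 CPM, and the leukocyte list, nearly all CD68, from between 104 and 124 CPM to between 130 and 180 CPM. The summed pericyte and myofibroblast markers ACTA2, RGS5 and DES were between 8.91 and 9.63 CPM in DMSO and between 10.6 and 13.3 CPM in the strong treatments, and the endothelial sum did not exceed 0.804 CPM in any library. All these sums are on the main scaling and were not taken under the others, so their direction may rest on it. The part of these marker shifts in the members' results was not tested.

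Adaptors and effectors that act at activated PDGF receptors were called in both directions on the main scaling. Of 26 receptor-proximal signalling genes, 13 were called lower and 9 higher with lapatinib, 12 and 9 with nilotinib, and 17 and 8 at 1 μM THZ531, with medians of -0.26, -0.19 and -0.57. Over all tested genes on the main scaling, 37.8% were called lower and 34.3% higher with lapatinib, and 37.3% and 33.7% with nilotinib. At 1 μM THZ531 the shares were 36.8% and 33.1%. Main-scaling calls of each list below are to be read against them. Under mitochondrial scaling 19, 18 and 18 of the 26 were called lower and 0 higher, with medians of -0.94, -0.81 and -1.11. That scaling called 9366, 8959 and 8424 of all 16036 tested genes lower and 850, 774 and 697 higher. The medians of all tested genes were then -0.69, -0.63 and -0.55. Mitochondrial-scaling calls of this list and of the others are to be read against those values. CRK, an adaptor that ABL kinases phosphorylate, had log2 FC of -2.36, -1.98 and -1.69, from 11.8 CPM in DMSO to 2.29, 2.98 and 3.64 CPM. PIK3R1, the regulatory subunit of PI3 kinase, had -2.25, -1.95 and -2.00. GRB2, the adaptor that links receptors to RAS, rose by 0.78, 0.83 and 0.64 on the main scaling and was at 0.10, 0.20 and 0.09 under mitochondrial scaling, none of them called. STAT3 rose by 0.70 at 1 μM THZ531 on the main scaling, where mitochondrial scaling gave 0.16.

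Among 14 tested partners and substrates of the ABL kinases, 7 were called lower and 5 higher with lapatinib, 6 and 5 with nilotinib, and 5 and 3 at 1 μM THZ531, with medians of -0.32, -0.13 and -0.16. Under mitochondrial scaling 11, 9 and 11 were called lower and 0 higher, with medians of -1.0, -0.75 and -0.70. BCAR1, a scaffold of focal adhesions, had log2 FC of -2.07, -1.99 and -1.65, and RIN1, which activates ABL kinases, had -1.69, -1.38 and -1.80. ENAH, an actin regulator, rose by 0.68, 0.73 and 0.55 on the main scaling, but was at -0.01, 0.10 and -0.00 under mitochondrial scaling. WASF2 rose by 0.51 and 0.60 in the combinations (-0.18 and -0.02 under mitochondrial scaling) and CTTN, cortactin, by 0.56 at 1 μM THZ531 (0.02). This list also gave calls at 0.1 μM THZ531, in which no member was called. SORBS2, an adaptor that binds ABL kinases, was at 5.45 ± 0.499 CPM in DMSO and 2.86 ± 0.315 CPM there (log2 FC -0.93). DOK1 had a log2 FC of -0.31, a call lost under mitochondrial scaling and with DESeq2's size factors in edgeR. PSTPIP2 had 0.32, a call lost under upper-quartile and mitochondrial scaling and with library size alone.

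Lapatinib or nilotinib alone gave 0 calls by edgeR in the lists of other nilotinib targets, PDGF ligands, collagen chains, receptor-proximal genes, ABL partners and other tyrosine kinases. At an unadjusted p under 0.05 the largest count in a list was 3 of 37 receptor tyrosine kinases in lapatinib and 9 of 37 in nilotinib. The share of all tested genes at that unadjusted p was not counted, so these counts, and those of the members, have no background. DESeq2 called 0 in lapatinib, and in nilotinib 2 receptor-proximal genes, 1 ABL partner and 1 receptor tyrosine kinase. Among 23082 genes DESeq2 called 34 lower and 102 higher in lapatinib, and 82 lower and 213 higher in nilotinib.

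Set among the other tyrosine kinases, ABL2 stood low and PDGFRB high at 1 μM THZ531. Ranked by log2 FC among the 62 tested, ABL2 had rank 2 from the bottom, PDGFRA 12 and ABL1 13, and PDGFRB had rank 8 and DDR2 rank 17 from the top. In the combinations ABL2 ranked 14 with lapatinib and 10 with nilotinib from the bottom, and PDGFRA 13 in both. Of the 37 other receptor tyrosine kinases tested, 14 were called lower and 12 higher with lapatinib, 12 and 16 with nilotinib, and 10 and 9 at 1 μM THZ531, with medians of 0.24, 0.18 and 0.04. The shares were 37.8%, 32.4% and 27.0% lower, against 37.8%, 37.3% and 36.8% of all tested genes. They were 32.4%, 43.2% and 24.3% higher, against 34.3%, 33.7% and 33.1%. Under mitochondrial scaling 19, 17 and 20 were called lower and 2, 2 and 1 higher, with medians of -0.44, -0.44 and -0.51. EPHB4, an ephrin receptor, had log2 FC of -2.46, -2.56 and -1.92, EGFR had -1.97 and -1.81 in the combinations, and EPHB1 had -1.46 at 1 μM THZ531. EPHA1 was at 0.0781 CPM in DMSO and 1.20, 1.12 and 0.736 CPM in the strong treatments (log2 FC 3.91, 3.82 and 3.21), and LTK had at most 33 counts in a library (2.92, 2.49 and 2.09, the last not called under mitochondrial scaling).

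Of 20 other cytoplasmic tyrosine kinases tested, 7 were called lower and 6 higher in each combination, and 6 and 6 at 1 μM THZ531, with medians of -0.17, -0.14 and -0.05. Under mitochondrial scaling 12, 10 and 9 were called lower and 0 higher, with medians of -0.85, -0.76 and -0.60. PTK2B, a calcium-regulated kinase of the focal adhesion kinase family, had log2 FC of -1.66, -1.68 and -1.12, and was already at -1.39 in 0.1 μM THZ531. SRC had -1.40 at 1 μM THZ531. JAK1 rose by 0.76, 0.72 and 0.63 on the main scaling, with 0.07, 0.09 and 0.08 under mitochondrial scaling. LYN had a log2 FC of 0.28 at 0.1 μM THZ531, a call lost with library size alone (adjusted p = 0.0533) and under mitochondrial scaling (adjusted p = 0.512). TNK1, TXK and FRK were near the limit of counting, with at most 56, 17 and 16 counts in a library. FRK had 0 counts in all 3 libraries of the nilotinib combination and was at least 2.92-fold lower than in DMSO, with a floor of 3 counts per library. TXK had a log2 FC of -2.61 in the lapatinib combination, and TNK1 had 1.31, 1.18 and 1.10 in the 3 strong treatments but 0.61, 0.56 and 0.53 under mitochondrial scaling, none of them called.

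**Figure D4:**
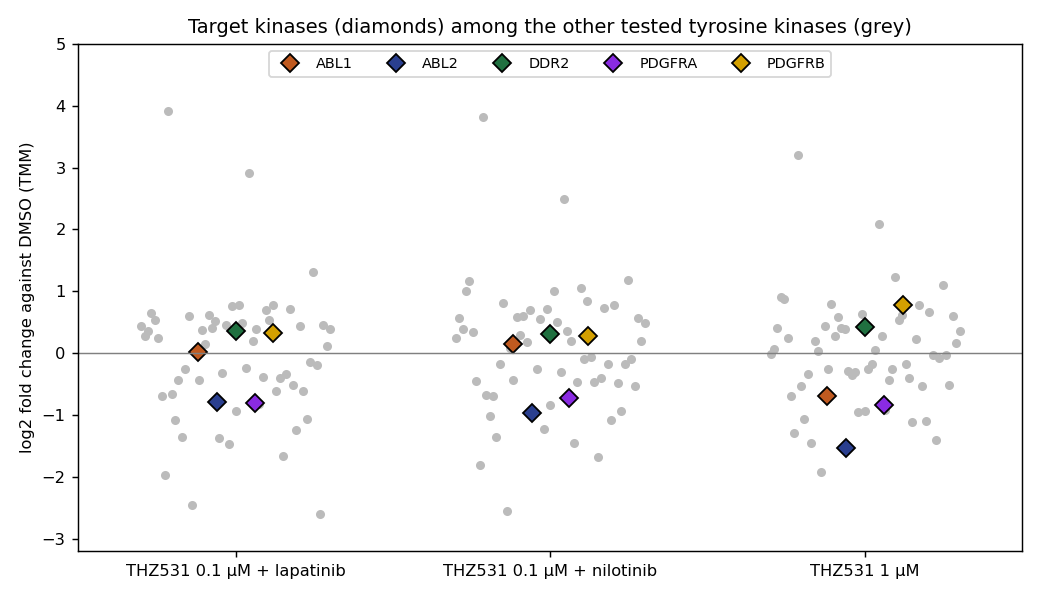
Log2 fold change against DMSO (TMM scaling) of ABL1, ABL2, DDR2, PDGFRA and PDGFRB (diamonds) and of 57 other tested tyrosine kinases (grey points) in the 3 strong THZ531 treatments. FRK, with 0 counts in the nilotinib combination, is not drawn there. ABL2 and PDGFRA lie in the lower part of each column, and PDGFRB ranks 8 from the top at 1 μM THZ531. Under mitochondrial scaling DDR2 in each column, and PDGFRB in the combinations, lie below 0.

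Members also differ in span, and the median log2 FC at 1 μM THZ531 was -0.01 for 8720 protein-coding genes under 50 kb, -0.19 for 2328 genes of 50 to 100 kb and -0.20 for 1602 genes of 100 to 200 kb. ABL2 and ABL1, in the last class, were at -1.54 and -0.69, PDGFRA, in the middle class, was at -0.84, and PDGFRB, in the first, was at 0.78. DDR2 was at 0.43 although its span of 156.5 kb lies in the last class, where 44.2% of genes were called lower and 25.4% higher. The relation of span to the members' results was not tested.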

How the data were processed

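RNA of Hs578T cells was sequenced as 21 poly(A) libraries, 3 for each of 7 groups. The values the authors deposited are unnormalised counts, with 1 row per Entrez gene. Per the labels and the submitters' processing notes, 100 bp paired-end reads were aligned to GRCh38 with HISAT2 2.1.0 and counted with featureCounts, and DESeq2 was used. The annotation release and the counting of pairs or ends are not given in the sources used here.

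Symbols and positions came from the RefSeq tables, and exon lengths from GENCODE v44. Genes with a symbol numbered 27745 and held 99.98% of counts. Low counts were filtered with filterByExpr, counts were scaled by TMM, and one model over all 7 groups was fitted with edgeR 4.0.16 (glmQLFit and glmQLFTest, limma 3.58.1, R 4.3.3). A gene was called at a Benjamini-Hochberg adjusted p under 0.05 over 16036 genes. Every adjusted p in the text is from edgeR's quasi-likelihood test unless another test is named. SE values are of log2 fold changes. The model was also run on simulated counts, in which few genes changed and only at 1 μM THZ531. In the real strong treatments most tested genes were called, so that run does not test the scaling there. Alternatives were DESeq2 1.42.0, other scalings, filters, a replicate block, fits on the groups compared alone, and leaving out each library.

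The labels give only replicate numbers, and the study describes the sequenced samples as coming from separate experiments, so p-values measure the spread between those experiments. The members and lists were chosen with earlier results of these data known. Genes named from a list were those with the largest called rise and fall in a comparison. KIT, CSF1R, MAP3K20, PDGFC and the genes around DDR1 were named after their values were seen. The libraries were unstranded, so reads of antisense or overlapping genes cannot be told apart.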

Additional observations from a re-analysis of the deposited data

Results flagged for a closer look

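For 3 genes the effect of 0.1 μM THZ531 differed by the presence of a second inhibitor, by edgeR's test of the interaction term. For ABL2 the log2 effect of THZ531 with nilotinib minus that without it was -0.81 (adjusted p = 0.00588), and with lapatinib it was -0.77 (adjusted p = 0.00729). For PDGFRA these differences were -0.63 (adjusted p = 0.000791) and -0.81 (adjusted p = 6.12e-05). Both genes kept a negative difference under mitochondrial scaling, at -1.26 and -1.32 for ABL2 and at -1.10 and -1.35 for PDGFRA. For PDGFRB the differences were 0.47 with nilotinib (adjusted p = 0.0129) and 0.49 with lapatinib (adjusted p = 0.00965), but 0.01 and -0.07 under mitochondrial scaling. All 6 terms share the DMSO and 0.1 μM THZ531 libraries.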

How the results depend on the processing

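Scaling was the choice that moved results most. With library size alone, ABL1 turned negative in the lapatinib combination (-0.32 against DMSO, -0.17 against lapatinib, -0.28 against 0.1 μM THZ531, interaction -0.13) and in the nilotinib combination (-0.15, -0.06 against nilotinib, -0.11, interaction -0.02). DDR2 became -0.19 against nilotinib (interaction -0.11), PDGFRA -0.03 between the lapatinib combination and 1 μM THZ531, and PDGFRB -0.03 in the nilotinib combination against DMSO. Calls against DMSO were lost for DDR2 at 0.17, 0.03 and 0.01 (1 μM THZ531, lapatinib and nilotinib combinations) and for PDGFRB at 0.00 in the lapatinib combination.

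With mitochondrial mRNAs, ABL1 in the lapatinib combination was -0.67, -0.39 and -0.68 against DMSO, lapatinib and 0.1 μM THZ531 (interaction -0.39), and in the nilotinib combination -0.47, -0.24 and -0.48 against DMSO, nilotinib and 0.1 μM THZ531 (interaction -0.24). ABL2 in lapatinib was -0.06. DDR2 was -0.12 and -0.08 at 1 μM THZ531 against DMSO and 0.1 μM THZ531, -0.32 and -0.28 in the lapatinib combination, -0.31, -0.34 and -0.26 in the nilotinib combination against DMSO, nilotinib and 0.1 μM THZ531 (interaction -0.29), and -0.02 between combinations. PDGFRA was -0.10 between the lapatinib combination and 1 μM THZ531. PDGFRB was -0.36, -0.21 and -0.22 in the lapatinib combination, -0.35, -0.13 and -0.21 in the nilotinib combination, -0.01 between them, and -0.07 for the lapatinib interaction. Calls were lost for DDR2 in lapatinib (0.29) and PDGFRB at 1 μM THZ531 (0.24). With upper-quartile scaling DDR2 in lapatinib was 0.43 but not called (adjusted p = 0.0647), DDR2 was 0.08 between lapatinib with and without THZ531 (interaction 0.16), and PDGFRA was -0.01 between the lapatinib combination and 1 μM THZ531. The cause was not tested.

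Leaving out 1 library gave these ranges of log2 differences against DMSO: ABL1 in nilotinib -0.12 to 0.01, ABL1 in the lapatinib combination -0.11 to 0.17, DDR2 in lapatinib 0.41 to 0.46, PDGFRB in lapatinib -0.07 to 0.07, in nilotinib -0.17 to 0.05, in the lapatinib combination 0.27 to 0.36 and in the nilotinib combination 0.26 to 0.30. Between treatments they were ABL1 -0.01 to 0.16, PDGFRA -0.17 to 0.04 and PDGFRB -0.16 to 0.06 for nilotinib against lapatinib, ABL1 -0.11 to 0.17 for the lapatinib combination against 0.1 μM THZ531, ABL1 -0.29 to 0.02 and DDR2 -0.01 to 0.09 between combinations, and PDGFRA -0.08 to 0.10 for the lapatinib combination against 1 μM THZ531. ABL2 and PDGFRA kept their lower calls against DMSO in the 3 strong treatments under every alternative run.

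Over all genes, lower and higher calls at 1 μM THZ531 numbered 5902 and 5301 with TMM, 7319 and 3363 with library size, 8424 and 697 with mitochondrial mRNAs and 4891 and 6642 with upper-quartile scaling. In lapatinib they were 9 and 41 with TMM and 34 and 102 with DESeq2, and in nilotinib 16 and 39 with TMM and 82 and 213 with DESeq2. Samples with the same replicate number correlated on average by 0.16 in their deviations from group means, against -0.07 for different numbers. Of 63 same-number pairs 36 exceeded 0.1, and 8 of 21 libraries correlated best with their own number. The numbers were not used as pairs in the main model. The replicate block changed no call of a member, with DDR2 in lapatinib at 0.43 (adjusted p = 0.016). Over all genes the block gave 17 lower and 51 higher calls in lapatinib, and 26 and 61 in nilotinib.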
